A study of Homo sapiens with 8 samples.

Results

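The aminoacyl-tRNA synthetases are the enzymes that join each amino acid to its tRNA, and 39 of their genes and of the genes for their scaffold proteins were followed in HepG2 cells that overexpress DNMT3A. They were taken by symbol from the deposited table of 58735 genes, and all 39 were found there: 20 cytosolic enzyme genes, 16 genes for mitochondrial enzymes, whose symbols end in 2, and the scaffold genes AIMP1, AIMP2 and EEF1E1. HepG2 is an established line of human hepatocellular carcinoma. A group of 4 libraries came from cells, labelled WT, that had received a control lentivirus, and the other group of 4 from cells given a lentivirus for overexpression of DNMT3A, an enzyme that places new methyl groups on DNA. All library names carry the prefix pLV_EGFP, so cells of both groups had been infected. The labels do not say whether the 4 libraries of a group were separate infections or cultures, or whether cells were cloned, so p-values here rest on a spread between libraries that may be technical only.

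Cytosolic protein synthesis uses enzymes encoded in the nucleus that work free in the cytosol or bound in the multisynthetase complex, an assembly of synthetases held together by AIMP1, AIMP2 and EEF1E1. Mitochondria import their own set, also encoded in the nucleus, to translate the mitochondrial genome. Many genes of the cytosolic set are known targets of ATF4, the transcription factor that cells make when amino acids run short or the endoplasmic reticulum is stressed. ATF4 and C/EBP proteins bind a composite element in such promoters.

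That element's core, TGATGNAA, was searched on both strands of the RefSeq promoter windows (GRCh38.p14, 300 bases, from 250 before to 50 after an annotated start). Windows were held for 33 of the 39 genes. Of these 33 genes 8 had at least 1 match, or 24.2%, against 4.46% of 27305 genes with a window, expressed here or not. Of the 45 windows of these genes 8 had a match, or 17.8%, against 3.62% of all 35116. By role, a match was found in 5 of 10 cytosolic enzymes outside the complex (AARS, CARS, GARS, NARS and TARS), in 2 of 6 complex enzymes (IARS and MARS), in 0 of 3 scaffolds and in 1 of 14 mitochondrial enzymes (YARS2). The matches are shown because this is the element through which ATF4 is known to act on such genes. A match is a run of letters and not evidence of binding, and AARS2, DARS, LARS, VARS, VARS2 and YARS had no window here.

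Each line gives 28 bases, 5′ to 3′, with the core in capitals, on the strand on which it reads TGATGNAA. Positions are counted from 0 at the annotated start. The AARS match lies in chr16:70289676-70289703 on the plus strand, bases -187 to -180, and the CARS match in chr11:3057408-3057435 on the plus strand, bases -2 to 5. For GARS it lies in chr7:30594835-30594862 on the minus strand, bases -33 to -26, and for IARS in chr9:92293693-92293720 on the plus strand, bases -13 to -6. For MARS it lies in chr12:57488054-57488081 on the minus strand, bases -4 to 3, for NARS in chr18:57621805-57621832 on the minus strand, bases 14 to 21, for TARS in chr5:33440957-33440984 on the minus strand, bases 2 to 9 and for YARS2 in chr12:32756077-32756104 on the minus strand, bases -197 to -190. In 6 of the 8 the letter at N is C; GARS has A there and YARS2 has G.
AARS: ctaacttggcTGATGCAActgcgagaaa
CARS: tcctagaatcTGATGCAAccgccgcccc
GARS: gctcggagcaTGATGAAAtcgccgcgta
IARS: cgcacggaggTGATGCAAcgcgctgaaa
MARS: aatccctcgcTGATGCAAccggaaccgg
NARS: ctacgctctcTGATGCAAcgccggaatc
TARS: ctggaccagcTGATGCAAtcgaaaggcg
YARS2: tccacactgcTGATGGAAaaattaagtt

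DNMT3A itself was read first, as a check of the labels. Its level, in which transgene and endogenous transcripts are not separated (FPKM, the number of fragments per gene, scaled to its length and to the library's size), was 3.62, 3.89, 3.45 and 3.64 in control libraries 1 to 4 and 9.75, 10.2, 8.51 and 7.26 in DNMT3A libraries 1 to 4. The groups did not overlap (log2 1.09 ± 0.09 (SE), limma adjusted p = 0.000122). A two-sided exact permutation test gave p = 0.0286, its minimum over 70 assignments. Reads recovered from FPKM and gene length summed to 15911019 to 17677093 a library, and 9.97% to 12.7% of them came from the mitochondrial genome. All 7 hepatocyte markers were tested, ALB at 6188 FPKM in the controls among them, and 2 of the 7 rose. AFP, a fetal serum protein, rose from a mean of 369.9 to 1143 FPKM (log2 1.61), and TTR, a thyroxine carrier, from 6.04 to 17.1 FPKM (log2 1.38); the part of this in the results was not tested. The 3 blood markers were at 0 in all 8 libraries, while the 3 endothelial markers summed to 0.435 to 0.679 FPKM and the 3 fibroblast markers to 0.377 to 0.754 FPKM.

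In the DNMT3A libraries 13 of 38 tested genes fell, against 10.6% of all 11620 genes tested, and 1 rose, against 9.93%. Those that fell were 9 of the 20 cytosolic enzymes, 2 of the 3 scaffolds and 2 of the 15 tested mitochondrial enzymes, and the gene that rose was mitochondrial. SARS2 was not tested, since its mean was below 1 FPKM. The median log2 difference of the 38 was -0.14, beside -0.01 over all tested genes. In 13 of the 38 every DNMT3A library lay below every control library, against 13.0% of tested genes, and in 3 every one lay above, against 12.1%. Every difference is the DNMT3A mean less the control mean of log2(FPKM + 1), a scale that understates changes of low genes, and a gene is said to have risen or fallen only if limma's Benjamini-Hochberg adjusted p over all tested genes was under 0.05. In bulk RNA, less RNA per cell and fewer cells with that RNA cannot be told apart.

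Summed over the 20 cytosolic enzymes, the level was 719.6, 686, 692 and 695 FPKM in the controls against 631, 612, 623 and 596 FPKM in the DNMT3A libraries. The highest DNMT3A library was below the lowest control library, and the mean sum was 11.8% smaller. Over the 16 mitochondrial enzymes the sum was 195, 200.0, 194 and 189 FPKM in the controls against 191, 181, 189 and 185 FPKM in the DNMT3A libraries, so that the groups overlapped. The cytosolic sum was 3.59 ± 0.123 (SD, n = 4) times the mitochondrial sum in the controls and 3.30 ± 0.0631 (SD, n = 4) times in the DNMT3A libraries. No test was made of these sums, since the genes were chosen with earlier results of these libraries known.

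**Figure D1:**
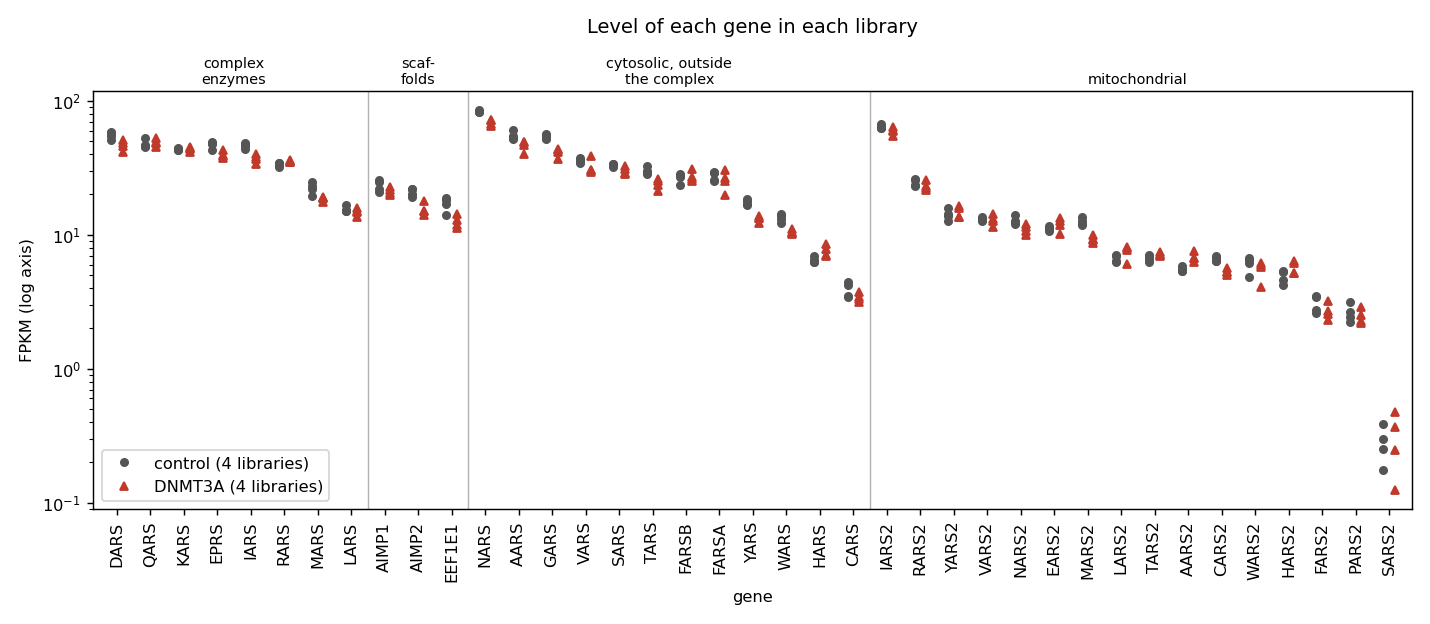
FPKM on a log axis for each of the 39 genes in each of the 8 libraries, grouped by role and ordered by mean; circles are control libraries and triangles DNMT3A libraries. NARS, at 83.5 FPKM in the controls, was the highest and SARS2, at 0.279 FPKM, the lowest.

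Levels of the cytosolic enzymes spanned from 83.5 ± 1.52 FPKM (mean ± SD, n = 4 controls) for NARS down to 3.90 ± 0.487 FPKM for CARS. IARS2 (64.0 ± 2.23 FPKM) stood well above the other mitochondrial enzymes, of which RARS2 (24.5 ± 1.53 FPKM) was the next highest and PARS2 (2.62 ± 0.39 FPKM) the lowest that was tested. FPKM divides by the whole annotated exonic length, which was 10037 bases for CARS and 10460 bases for CARS2. Exonic bases shared with another annotated gene also matter, since no strand-marking step is described in the protocol, and the handling of shared reads is not stated in the sources used here. No base was shared in 16 of the 39 genes, and over 15% in 5: SARS2, AIMP2, VARS2, EEF1E1 and HARS2.

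SARS2, which charges mitochondrial serine tRNA, was listed at 0.389, 0.252, 0.176 and 0.299 FPKM in the controls against 0.248, 0.473, 0.125 and 0.37 FPKM in the DNMT3A libraries, from 7 to 28 reads. Of its exonic bases 57.0% are shared with AC011455.2 or MRPS12. AC011455.2 was listed at 0 in every library, and MRPS12 at 11.4 to 21.0 FPKM. With a mean below 1 FPKM SARS2 was left untested, and the part of the shared bases in its low level was not tested either. VARS2 shares 22.0% of its bases with GTF2H4, which was listed at 0 to 0.186 FPKM. Of the genes that share no base 5 of 16 fell and 0 rose (median log2 -0.14), and among the others 8 of 22 tested fell and 1 rose (median log2 -0.13). Over all tested genes 10.6% fell and 9.93% rose. The others include genes with very little sharing, such as LARS with 0.517% of its bases, and the part of shared bases in these counts was not tested.

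Of the 12 cytosolic enzymes that work outside the multisynthetase complex 5 fell and 0 rose, with a median log2 of -0.19. Over all tested genes 10.6% fell and 9.93% rose. GARS, which charges glycine tRNA for both compartments from the same gene (ENSG00000106105, chr7:30594681-30634033, plus strand; hg38), was at 55.4, 52.3, 52.6 and 56.9 FPKM in the controls against 41.2, 37.0, 43.2 and 43.5 FPKM in the DNMT3A libraries. All DNMT3A libraries were below all controls, the lowest being library 2, and GARS fell by 24.1% (log2 -0.39 ± 0.06 (SE), limma adjusted p = 0.00345). YARS, the tyrosine enzyme (ENSG00000134684, chr1:32775237-32818153, minus strand), was at 18.5, 16.8, 16.9 and 18.0 FPKM in controls and 13.8, 13.3, 13.3 and 12.2 FPKM with DNMT3A. Its groups were also separate, and it fell by 25.1% (log2 -0.39 ± 0.06 (SE), limma adjusted p = 0.00204).

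WARS, the tryptophan enzyme, also known to be induced by interferon (ENSG00000140105, chr14:100333788-100376805, minus strand), was at 13.1, 12.3, 13.9 and 14.2 FPKM in the controls against 11.1, 10.4, 10.3 and 10.1 FPKM in the DNMT3A libraries. It fell by 21.6% (log2 -0.32 ± 0.06 (SE), limma adjusted p = 0.00564). TARS, the threonine enzyme (ENSG00000113407, chr5:33440696-33469539, plus strand), was at 32.7, 29.7, 28.5 and 29.6 FPKM in controls and 26.2, 23.5, 25.2 and 21.3 FPKM with DNMT3A, without overlap, with the lowest value in DNMT3A library 4. The difference was log2 -0.32 ± 0.07 (SE), limma adjusted p = 0.0144. NARS, the asparagine enzyme and the highest of the 39 in FPKM (ENSG00000134440, chr18:57600656-57622213, minus strand), was at 82.0, 83.8, 85.5 and 82.7 FPKM in controls and 66.8, 64.8, 71.5 and 72.1 FPKM with DNMT3A. Even its highest DNMT3A library was below the lowest control, and it fell by 17.6% (log2 -0.28 ± 0.05 (SE), limma adjusted p = 0.00687). These 5 calls held under every alternative tried, including leaving out each library.

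AARS, which charges alanine tRNA, was lower in every DNMT3A library (49.6, 49.3, 47.0 and 40.2 FPKM) than in any control (60.8, 52.6, 51.7 and 54.5 FPKM) but did not pass the test (log2 -0.24, limma adjusted p = 0.0643). It passed with library weights (limma adjusted p = 0.0381) and with a correction on length and GC content (0.0189). SARS, the serine enzyme (log2 -0.14), CARS, the cysteine enzyme (log2 -0.15), and the phenylalanine enzyme's subunits FARSA (log2 -0.11) and FARSB (log2 0.04) did not pass. The 95% confidence interval, which is not adjusted for the number of genes, was -0.26 to -0.01 for SARS, -0.33 to 0.03 for CARS, -0.36 to 0.15 for FARSA and -0.14 to 0.21 for FARSB. The sign turned for FARSB with library weights or with control library 1 or DNMT3A library 4 left out, and for FARSA with DNMT3A library 4 left out.

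VARS, the valine enzyme, which travels with elongation factor 1, was at 35.9, 34.8, 37.2 and 34.4 FPKM in the controls against 30.5, 38.4, 30.4 and 29.6 FPKM in the DNMT3A libraries. DNMT3A library 2 was above all controls and the other 3 were below all of them. Over all libraries VARS did not pass (log2 -0.15, limma adjusted p = 0.237), and without DNMT3A library 2 it was lower at a log2 of -0.23 (limma adjusted p = 0.0135). With library weights it passed too (0.0269). HARS, the histidine enzyme, had values on the other side: 6.97, 6.32, 6.50 and 6.31 FPKM in the controls against 7.06, 8.50, 7.83 and 6.97 FPKM in the DNMT3A libraries. Every DNMT3A library was above every control, by a narrow margin for libraries 1 and 4, and the difference did not pass (log2 0.19, limma adjusted p = 0.0819); it passed with library weights (0.0172) and with voom on reads (0.0472).

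Within the multisynthetase complex, 4 of the 8 enzymes fell and 0 rose, beside 10.6% and 9.93% of all tested genes, with a median log2 of -0.15. IARS, the isoleucine enzyme (ENSG00000196305, chr9:92210207-92293756, minus strand), was at 45.6, 43.8, 47.4 and 48.8 FPKM in the controls against 40.2, 33.5, 36.6 and 38.2 FPKM in the DNMT3A libraries. The groups were apart, with the lowest value in DNMT3A library 2, and IARS fell by 20% (log2 -0.32 ± 0.07 (SE), limma adjusted p = 0.00956). MARS, the methionine enzyme (ENSG00000166986, chr12:57475445-57517569, plus strand), was at 24.6, 19.5, 22.2 and 23.0 FPKM in controls and 19.0, 18.8, 18.7 and 17.6 FPKM with DNMT3A. Control library 2 lay close above the highest DNMT3A library, and the difference was log2 -0.25 ± 0.07 (SE), limma adjusted p = 0.0353.

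EPRS, which carries the glutamate and proline activities in the same chain (ENSG00000136628, chr1:219968601-220046658, minus strand), was at 49.2, 42.7, 48.0 and 48.5 FPKM in the controls against 43.1, 39.1, 38.6 and 37.7 FPKM in the DNMT3A libraries. DNMT3A library 1 overlapped control library 2, and the difference was log2 -0.24 ± 0.07 (SE), limma adjusted p = 0.0279. DARS, the aspartate enzyme (ENSG00000115866, chr2:135906677-135986100, minus strand), was at 58.1, 57.3, 54.6 and 51.1 FPKM in controls and 50.7, 41.6, 48.7 and 46.0 FPKM with DNMT3A. Its groups were separate by a small margin, between DNMT3A library 1 and control library 4 (log2 -0.24, limma adjusted p = 0.0422).

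Of these 4 falls, that of IARS held under every alternative, and the other 3 did not. MARS did not pass when library 1, 3 or 4 of either group was left out (limma adjusted p = 0.0625 to 0.0852). For EPRS this was so for libraries 1, 3 and 4 of the controls and 3 and 4 of the DNMT3A group (0.0516 to 0.0785), and for DARS for libraries 1, 2 and 3 of the controls and 2, 3 and 4 of the DNMT3A group (0.0658 to 0.106). The replicate block also ended the calls of MARS (0.0604) and DARS (0.0654), and that of DARS was lost with no trend (0.0516) and with the length spline (0.0511). With no filter on low genes only IARS passed among the 8 (MARS 0.0846, EPRS 0.0617, DARS 0.1), as also with quantile normalization (0.0502, 0.0565 and 0.115).

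The other 4 complex enzymes did not pass. RARS, the arginine enzyme, was at 34.2, 34.6, 32.9 and 32.1 FPKM in the controls against 35.6, 35.0, 34.9 and 36.1 FPKM in the DNMT3A libraries. All DNMT3A libraries were above all controls, yet the log2 difference was only 0.08 (limma adjusted p = 0.259, 95% confidence interval -0.03 to 0.19). KARS, whose gene supplies lysine charging to both compartments, had 43.5 ± 0.716 FPKM in the controls against 43.8 ± 1.66 FPKM in the DNMT3A libraries (SD, n = 4; 95% confidence interval of the log2 difference -0.10 to 0.12). QARS, the glutamine enzyme (log2 0.04, interval -0.10 to 0.19), and LARS, the leucine enzyme and a sensor of leucine for the mTOR pathway (log2 -0.06, interval -0.20 to 0.08), did not pass. For these 4 the intervals stopped short of the log2 of -0.32 measured for IARS.

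Of the 3 scaffolds 2 fell, beside 10.6% of all tested genes. AIMP2, around which the complex assembles (ENSG00000106305, chr7:6009245-6023834, plus strand), was at 19.3, 21.9, 22.1 and 20.0 FPKM in the controls against 15.2, 18.0, 14.9 and 14.0 FPKM in the DNMT3A libraries. The groups did not overlap, and AIMP2 fell by 25.5% (log2 -0.40 ± 0.08 (SE), limma adjusted p = 0.00806), from 452 to 693 reads a library. AIMP2 shares 28.9% of its exonic bases with EIF2AK1, the heme-regulated eIF2 kinase, on the opposite strand, which was named after its value was seen. EIF2AK1 was at 49.5, 52.6, 51.8 and 51.2 FPKM in controls and 44.1, 39.3, 44.5 and 45.1 FPKM with DNMT3A and fell too (log2 -0.24 ± 0.06 (SE), limma adjusted p = 0.0165), though not with quantile normalization (0.0591) or on leaving out control library 3 (0.0529). The part of the shared bases in the fall of AIMP2 was not tested.

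EEF1E1, also called AIMP3, which holds MARS in the complex (ENSG00000124802, chr6:8073360-8102578, minus strand), was at 16.9, 18.1, 18.9 and 14.0 FPKM in the controls against 11.9, 11.3, 12.9 and 14.2 FPKM in the DNMT3A libraries. DNMT3A library 4 was above control library 4, the other DNMT3A libraries were below all controls, and EEF1E1 fell by 25.9% (log2 -0.40 ± 0.10 (SE), limma adjusted p = 0.019). Leaving out library 2 or 3 of the controls, or library 1 of the DNMT3A group, ended the call (limma adjusted p = 0.0528 to 0.0574), as did testing without a filter (0.0689). EEF1E1 shares 18.7% of its exonic bases with EEF1E1-BLOC1S5, which was listed at 0 in every library. AIMP1, the precursor of a secreted cytokine, was at 23.3 ± 2.26 FPKM in controls and 21.1 ± 1.34 FPKM with DNMT3A (SD, n = 4) and did not pass (log2 -0.14, limma adjusted p = 0.231).

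**Figure D2:**
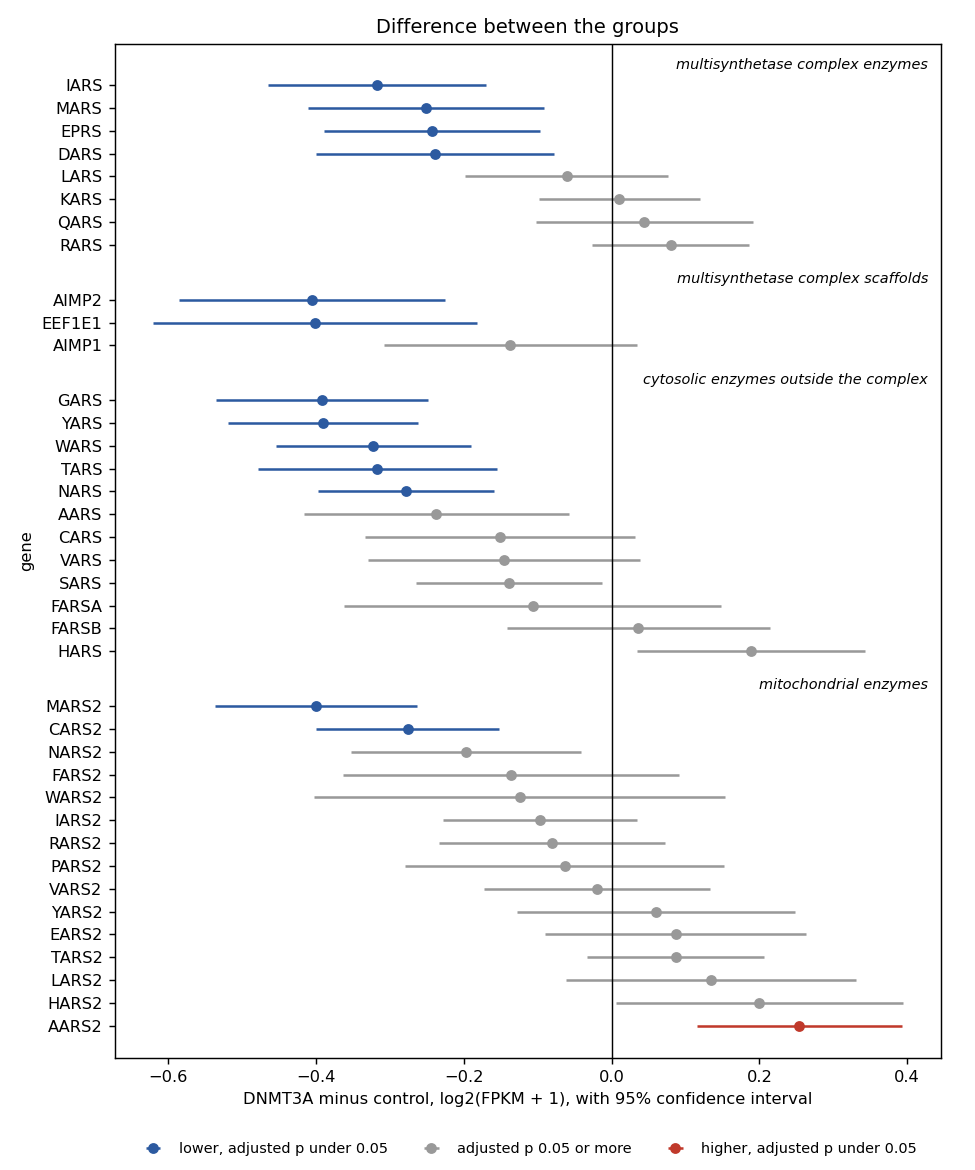
Difference of the DNMT3A from the control mean, in log2(FPKM + 1), for the 38 tested genes, by role, with the 95% confidence interval of the fit. Blue points, 13 in all, were lower with an adjusted p under 0.05 and the red point, AARS2, was higher; grey points did not pass.

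Of the 15 tested mitochondrial enzymes 2 fell, 1 rose and 12 did not pass, with a median log2 of -0.06. These counts are near the shares of all tested genes that fell (10.6%) and rose (9.93%). MARS2, the methionine enzyme of mitochondria (ENSG00000247626, chr2:197705369-197708387, plus strand), was at 12.1, 12.7, 13.5 and 11.8 FPKM in the controls against 10.00, 9.14, 8.69 and 9.23 FPKM in the DNMT3A libraries. The groups were well apart, and MARS2 fell by 26.1% (log2 -0.40 ± 0.06 (SE), limma adjusted p = 0.00248). CARS2, the cysteine enzyme (ENSG00000134905, chr13:110641412-110713603, minus strand), was at 6.35, 6.75, 6.89 and 6.36 FPKM in controls and 4.98, 5.25, 5.23 and 5.61 FPKM with DNMT3A, again without overlap, and fell by 20% (log2 -0.28 ± 0.06 (SE), limma adjusted p = 0.00834). CARS2 is the only member among the 39 genes on chromosome 13, where falls outnumbered rises by 66 to 9 among 199 tested genes (median log2 -0.15); the part of this in its fall was not tested. Both falls held under every alternative tried.

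AARS2, which charges mitochondrial alanine tRNA (ENSG00000124608, chr6:44299654-44313326, minus strand), was the only gene of the 39 that rose. Its level was 5.87, 5.41, 5.51 and 5.41 FPKM in the controls against 6.66, 7.55, 6.76 and 6.31 FPKM in the DNMT3A libraries. Every DNMT3A library was above every control, with the highest value in library 2 (log2 0.25 ± 0.06 (SE), limma adjusted p = 0.0184). The call was lost without control library 2 (limma adjusted p = 0.0533) or 3 (0.0535). Its cytosolic counterpart AARS had values in the opposite direction, as given above.

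NARS2, the asparagine enzyme, was at 12.0, 13.9, 12.4 and 12.7 FPKM in the controls against 11.4, 9.94, 10.7 and 11.9 FPKM in the DNMT3A libraries. The groups touched without overlapping, and it did not pass (log2 -0.20, limma adjusted p = 0.0737), except with library weights (0.0209), with the correction on length and GC content (0.0306) or without DNMT3A library 4 (0.0456). LARS2, the leucine enzyme, was at 6.97, 6.25, 6.42 and 7.02 FPKM in controls and 7.99, 8.06, 7.75 and 6.00 FPKM with DNMT3A. DNMT3A library 4 lay below all controls and the other 3 above all of them, and LARS2 did not pass over all libraries (log2 0.13, limma adjusted p = 0.303) but did without that library (log2 0.22, limma adjusted p = 0.0307).

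HARS2, the histidine enzyme, was at 5.33, 5.32, 4.57 and 4.21 FPKM in the controls against 5.23, 6.11, 6.33 and 5.22 FPKM in the DNMT3A libraries (log2 0.20, limma adjusted p = 0.133; 0.0242 with library weights). HARS and HARS2 lie head to head on chromosome 5, from 140673904 to 140691862 on the minus strand and from 140691426 to 140699318 on the plus strand, and 437 exonic bases belong to both. Without strand, reads from that stretch cannot be assigned to either gene, and whether they were counted or dropped is not stated in the sources used here. Both had positive differences of like size. HARS2 shares 589 exonic bases in all, with HARS or with ZMAT2, and ZMAT2 was listed at 34.1 to 42 FPKM. The part of these shared bases in the values of HARS2 was not tested.

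The other 9 tested mitochondrial enzymes lay between a log2 of -0.14 and 0.09. Below 0 were FARS2 for phenylalanine (log2 -0.14), WARS2 for tryptophan (log2 -0.12), IARS2 for isoleucine (log2 -0.10), RARS2 for arginine (log2 -0.08), PARS2 for proline (log2 -0.06) and VARS2 for valine (log2 -0.02). Above 0 were YARS2 for tyrosine (log2 0.06), EARS2 for glutamate (log2 0.09) and TARS2 for threonine (log2 0.09). None of the 9 passed under any alternative run, and the sign turned for VARS2 with voom and without control library 4 or DNMT3A library 4, and for PARS2 without control library 4. WARS2 had its lowest value, 4.05 FPKM, in DNMT3A library 2, whereas the other DNMT3A libraries (6.00, 6.18 and 5.76 FPKM) lay within the control range of 4.87 to 6.67 FPKM.

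The 13 genes that fell were below their control mean in each of the 4 DNMT3A libraries, and their median was much the same in all 4. This median deviation, measured from the control mean of each gene, was -0.30, -0.36, -0.32 and -0.31 for DNMT3A libraries 1 to 4. It was -0.02 to 0.03 for the controls. Single genes differed in their spread over the DNMT3A libraries: DARS ran from -0.40 to -0.12 and AIMP2 from -0.54 to -0.20, but WARS from -0.37 to -0.25. Because the genes were picked by this difference, these values only describe how evenly it was shared. Over the 20 cytosolic enzymes, picked by role, the medians were -0.13, -0.23, -0.20 and -0.26, and over the 15 tested mitochondrial enzymes they lay between -0.06 and 0.00 in libraries 1 to 3 and at -0.13 in library 4. Library 4 was thus the lowest for both compartments, and the medians of all tested genes lay between -0.02 and 0.00.

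**Figure D3:**
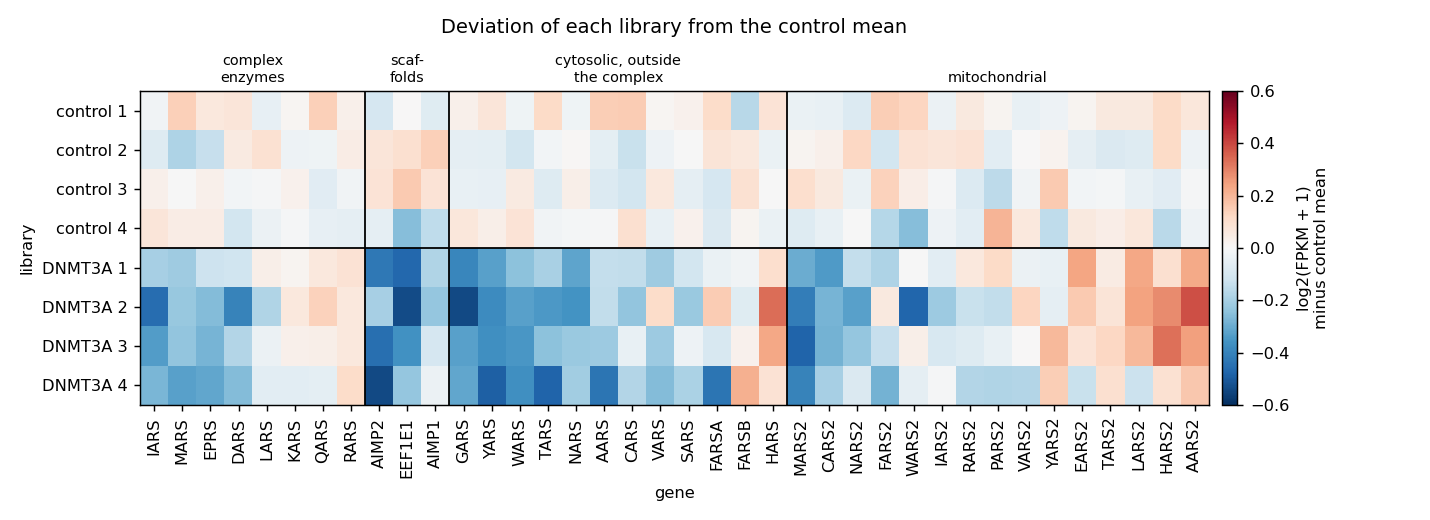
Each library's log2(FPKM + 1) minus the control mean for the 38 tested genes, blue below and red above, ordered by role and difference. The 4 lower rows are the DNMT3A libraries; the 13 genes that fell are blue in all 4 of them, and the VARS and LARS2 columns each hold 1 DNMT3A library of the other colour.

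Pairs of enzymes for the same amino acid were set side by side as a within-library log2 ratio of FPKM, cytosolic over mitochondrial. In FPKM the cytosolic gene was the higher in 14 of 16 pairs in the controls, the exceptions being cysteine and isoleucine. Such a ranking depends on the annotated lengths, 7401 bases for IARS and 4165 bases for IARS2. In reads IARS had 4540 to 6363 a library and IARS2 had 4145 to 4822. The change of a ratio between the groups does not depend on these lengths. In the DNMT3A libraries the mean ratio was smaller in 12 of 16 pairs, and in 4 the groups did not overlap: alanine, tyrosine, threonine and glutamate. Of single tested genes 13.0% lay wholly below the controls and 12.1% wholly above, and no such share was computed for ratios. EPRS enters both the glutamate and the proline pair, so the pairs are not independent. For AARS over AARS2 the ratio went from 9.88 to 6.81 (log2 ratio 3.30 ± 0.062 and 2.77 ± 0.1, SD, n = 4). For YARS over YARS2 it went from 1.24 to 0.89, and the FPKM of YARS2 was the higher in DNMT3A libraries 2, 3 and 4 but not in library 1. This order too depends on length, 8212 bases for YARS and 2152 bases for YARS2. In reads YARS had 1760 to 2604 a library and YARS2 had 474 to 611. Threonine (TARS over TARS2) went from 4.50 to 3.34 and glutamate (EPRS over EARS2) from 4.21 to 3.32. In 4 pairs (methionine, arginine, cysteine and phenylalanine) the mean ratio was larger in the DNMT3A libraries, with overlapping groups. The serine ratio rests on the few reads of SARS2, and no change of a ratio was tested.

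**Figure D4:**
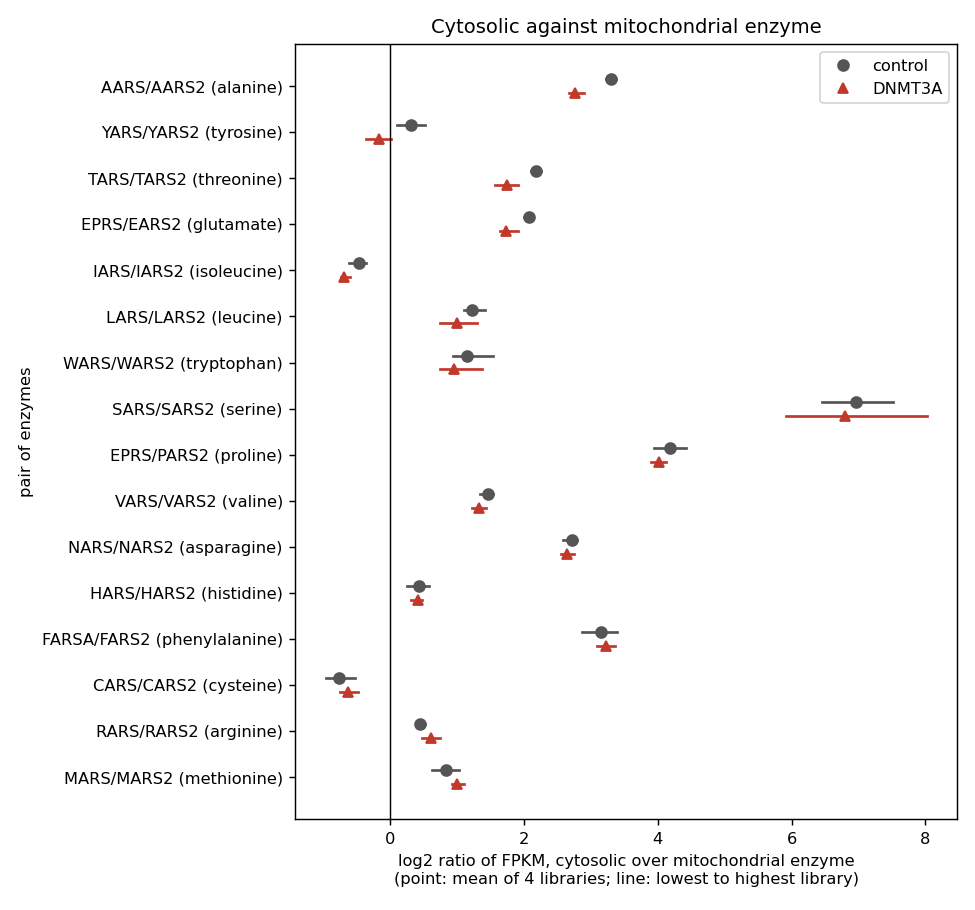
Log2 ratio of the cytosolic to the mitochondrial enzyme's FPKM for 16 amino acids; points are means of 4 libraries and lines run from the lowest to the highest library. The pairs are ordered by the difference between the groups, and the lines do not overlap for the 4 at the top, alanine, tyrosine, threonine and glutamate.

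Synthetases known as ATF4 targets were set against the other cytosolic enzymes. The list of 12 was AARS, CARS, EPRS, GARS, IARS, LARS, MARS, NARS, SARS, TARS, WARS and YARS. Of these 8 fell, 0 rose and 12 had a negative difference (median log2 -0.26), beside the 10.6% of all tested genes that fell. Of the 8 other cytosolic enzymes 1 fell (DARS) and 0 rose, and 5 had a positive difference (median log2 0.02). The list was chosen with a fall of ATF4 response genes in these libraries known, so its counts are no independent evidence of direction, and the difference between the lists was not tested. Without 1 library the count for the ATF4 list was 6 to 8, and it was 6 with no filter or with quantile normalization.

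The promoter matches were set beside these differences. Of 7 cytosolic enzymes with a match (AARS, CARS, GARS, IARS, MARS, NARS and TARS) 5 fell, beside 10.6% of all tested genes. All 7 had a negative difference, with a median log2 of -0.28. These 7 are also on the list of ATF4 targets above, so their counts are no separate evidence, and the split by match was not tested. Of 9 with a window and no match 2 fell and 4 had a negative difference (median log2 0.01), and of 4 without a window 2 fell. YARS2, the mitochondrial enzyme with a match, had a log2 of 0.06, and WARS and EPRS fell with no match in their windows. Windows of the 33 genes held a median of 23 CpG sites, counting the window with the most for each gene. The median was 16 over all genes with a window, expressed here or not, and expressed genes alone were not compared. DNA methylation was not analysed here.

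Genes that act with the synthetases were read from 9 lists, and of 90 tested genes in them 20 fell, against 10.6% of all tested genes, and 7 rose, against 9.93%. The count of rises is near that share. Of the 20 falls 9 were in the list of 10 amino acid transporters, and each other list held 0 to 3. ATF4 itself was at 126, 118, 111 and 108 FPKM in the controls against 109.9, 118, 126 and 110.0 FPKM in the DNMT3A libraries (log2 0.00, interval -0.15 to 0.16), so its transcript showed no difference beyond the spread. These libraries hold RNA only, and the amount or activity of ATF4 protein was not measured. Among eIF2 kinases and amino acid response genes 3 of 12 rose and 3 fell, beside 9.93% and 10.6% of all tested genes. TRIB3, an ATF4 target that feeds back on it, fell from 65.7 ± 3.52 to 51.1 ± 2.70 FPKM (log2 -0.36 ± 0.06 (SE), limma adjusted p = 0.00386). SESN2, a leucine sensor and stress gene, rose (log2 0.47, limma adjusted p = 0.00852), as did EIF2AK3, the eIF2 kinase of the endoplasmic reticulum (log2 0.46, limma adjusted p = 0.00116). ASNS, asparagine synthetase, was listed at 0.141 to 0.408 FPKM in the controls against 0.36 to 0.485 FPKM in the DNMT3A libraries and was not tested. It shares 44.6% of its exonic bases with AC079781.5, and the part of this in its low level was not tested.

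The list of amino acid transporters, which supply the substrates, held the largest share of falls among the 9 lists. Of its 10 genes 9 fell and 1 rose, beside 10.6% and 9.93% of all tested genes, with a median log2 of -0.41. These 10 were chosen with earlier results of these libraries known, so the counts do not describe amino acid transporters in general. SLC3A2, the heavy chain shared by several exchangers, was at 64.2, 69.1, 63.9 and 59.8 FPKM in the controls against 41.3, 45.9, 41.2 and 42.2 FPKM in the DNMT3A libraries (log2 -0.58 ± 0.06 (SE), limma adjusted p = 0.000382). SLC7A11, the light chain of the cystine exchanger, fell by 1.04 on the log2 scale. SLC38A2, a sodium-coupled carrier of small neutral amino acids, rose from 74.6 ± 3.19 to 162 ± 17.9 FPKM (log2 1.10 ± 0.08 (SE), limma adjusted p = 5.63e-05).

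Genes that handle tRNA gave mixed counts. Among 9 tested genes of tRNA export, end processing and stability 3 fell: XPOT, the exportin of tRNA (log2 -0.38 ± 0.07 (SE), limma adjusted p = 0.0056), and the RNase P subunits RPP40 (log2 -0.44) and RPP30 (log2 -0.29), whereas XPO5 did not pass (log2 0.05). Of 17 genes of tRNA modification 3 fell and 0 rose: the tRNA guanosine methylation enzyme METTL1 (log2 -0.34, limma adjusted p = 0.0045), the thiolation enzyme CTU1 (log2 -0.47) and DUS3L, which makes dihydrouridine (log2 -0.35). Of 18 genes of RNA polymerase III transcription, which makes tRNA, 1 rose (POLR3D, log2 0.23) and 0 fell. Beside the 10.6% of all tested genes that fell and the 9.93% that rose, counts this small are not read as a result about these lists. The calls of XPOT and METTL1 were kept under every alternative tried. Those of RPP40, RPP30, CTU1, DUS3L and POLR3D were lost without a filter (limma adjusted p = 0.0756, 0.058, 0.108, 0.115 and 0.0701), and the replicate block ended those of RPP30 (0.0517) and POLR3D (0.0859). Leaving out a library ended the call of RPP40 (libraries 2 and 3 of the controls, 1 of the DNMT3A group; 0.0536 to 0.0602), RPP30 (2 and 3, and 1 and 3; 0.0505 to 0.062), CTU1 (1, 2 and 3, and 1 and 4; 0.0507 to 0.0836), DUS3L (1, 2 and 3, and 3 and 4; 0.0707 to 0.0971) and POLR3D (1, 2 and 3 of either group; 0.0551 to 0.0871).

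In mitochondria, glutamine tRNA is charged through a detour: EARS2 loads it with glutamate, and the amidotransferase made of GATC, GATB and QRSL1 converts this to glutamine. GATC was at 5.93, 5.03, 6.11 and 6.15 FPKM in the controls against 7.72, 8.02, 8.38 and 7.88 FPKM in the DNMT3A libraries and rose (log2 0.41 ± 0.07 (SE), limma adjusted p = 0.00349), while QRSL1 did not pass (log2 -0.04). MTFMT, which formylates the methionine that MARS2 attaches, fell from 4.51 ± 0.27 to 3.75 ± 0.117 FPKM (log2 -0.21, limma adjusted p = 0.0286); the call was lost when library 1, 2 or 3 of the controls, or 1 or 3 of the DNMT3A group, was left out (0.0547 to 0.0834), without a filter (0.0525), with the replicate block (0.074) and with voom (0.0887). DTD2, which removes wrongly attached amino acids from tRNA, rose (log2 0.36, limma adjusted p = 0.0055). Of 9 mitochondrial translation factors 1 fell (GFM1, log2 -0.20) and 0 rose, beside 10.6% and 9.93% of all tested genes. TUFM, the elongation factor that receives the charged tRNA, did not pass (log2 -0.05). GFM1 did not pass if no genes were filtered out (limma adjusted p = 0.0775), with the replicate block (0.0634) or on leaving out any control library or library 2, 3 or 4 of the DNMT3A group (0.0513 to 0.104). Of 5 tested cytosolic elongation factors 0 passed, EEF2 among them (log2 0.14).

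**Figure D5:**
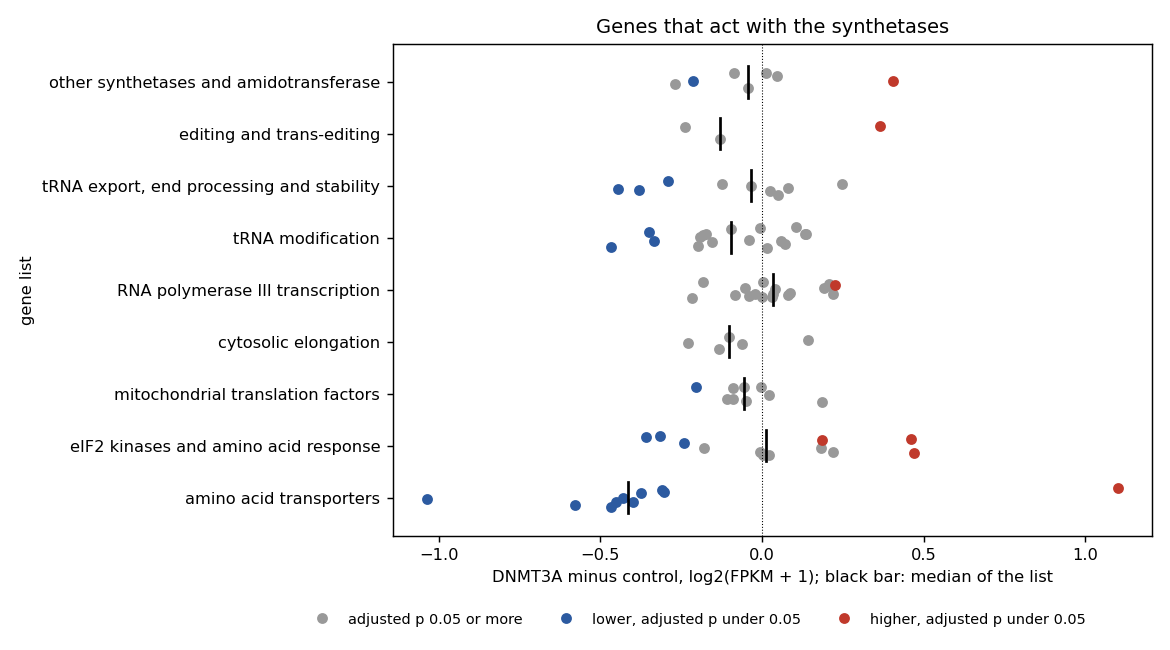
Difference of the DNMT3A from the control mean, in log2(FPKM + 1), for the tested genes of 9 lists; each point is a gene, offset at random up and down, and the black bar is the list's median. Amino acid transporters hold 9 of the 20 blue points, genes that fell, and the other lists have medians between -0.13 and 0.03.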

How the data were processed

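Libraries were made from poly(A) RNA, per the labels' protocols. The submitters' processing notes name HISAT2 2.0.5 and the build hg38. Which program counted reads, and whether it used strand, is not given in the sources used here. For each library the authors deposited FPKM, per the file headers, beside gene length. All 58735 gene coordinates equalled those of GENCODE release 29. FPKM times length gave whole multiples of 1 step for 100% of values (tolerance 0.01), taken as reads. The median ratio of a library to the genes' geometric means was 1.01 in all 8, so the values were already on a median-ratio scale.

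Groups came from titles. Genes with mean FPKM of at least 1 (11620) were fitted on log2(FPKM + 1) with limma 3.58.1 (R 4.3.3, intensity trend), Benjamini-Hochberg adjustment and a threshold of 0.05; the fit was tested on simulated data. The genes and lists were chosen with earlier results of these data known. Named besides the 39 are DNMT3A, ATF4, ASNS and, per list, up to 3 called genes with the largest change and 2 others with the highest mean; a gene that the rule also names is not reported here. Alternatives were median-ratio scaling, a pseudocount of 0.1, no trend, quantile normalization, no filter, library (array) weights, a replicate block, voom on recovered reads, a spline on gene length and leaving out each library; a spline on length and GC content was added after the data were seen.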

Additional observations from a re-analysis of the deposited data

Results flagged for a closer look

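In groups of 4 libraries, 2 of 78 sets of values (39 genes in 2 groups) had a library whose gap to its nearest neighbour exceeded Dixon's 95% critical share of the group's range, where chance gives about 1 in 20. For VARS in the DNMT3A group, library 2 was at 38.4 FPKM and the other 3 at 29.6 to 30.5 FPKM. For LARS2 in the DNMT3A group, library 4 was at 6.00 FPKM and the other 3 at 7.75 to 8.06 FPKM.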

How the results depend on the processing

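Of the 14 calls among the 39 genes, 14 kept their direction and 9 also their side of the threshold under all 18 alternatives. The 13 falls became 9 without a filter, 10 with quantile normalization, 16 with library weights, 15 with the spline on length and GC content and 9 to 13 without 1 library. Counts over all tested genes moved too. Their 1235 falls became 786 (of 30436 genes), 1111, 1931, 1664 and 739 to 1248 under these alternatives, in the same order. The 1 rise became 3 with library weights, 2 with voom and 0 to 2 without 1 library (0 without control library 2 or 3, 2 without DNMT3A library 4). Over all tested genes 1154 rises became 1825, 1530 and 769 to 1195. In the related lists the 20 falls became 12 without a filter and 11 to 20 without 1 library (11 without control library 3). The complex enzymes' 4 falls became 1 without a filter, 1 with quantile normalization and 1 to 3 without 1 library, and the scaffolds' 2 falls 1 to 2. Fewer libraries or more genes tested are part of these alternatives; other causes were not tested. DNMT3A kept its call throughout.

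No pairing by replicate number was seen: same-numbered libraries had correlations of deviations of 0.16, -0.08, -0.02 and 0.10. Of the 8 libraries 2 correlated best with the library of their own number. With 4 libraries a group this cannot exclude a shared batch. The replicate block gave 11 falls and 1 rise among the 39 genes, and 17 falls and 5 rises in the related lists.

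Signs turned for genes near 0: on the log2 scale, FARSB gave -0.00158 with library weights and VARS2 0.00139 with voom. Leaving out each library in turn gave ranges across 0 for FARSB (-0.0228 to 0.0733), VARS2 (-0.0691 to 0.0326), KARS (-0.0069 to 0.0356), FARSA (-0.192 to 0.00444), PARS2 (-0.123 to 0.00392) and ATF4 (-0.0381 to 0.0421). Low read numbers limit SARS2 (7 to 28) and PARS2 (83 to 130).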
